A study of Mus musculus with 5 samples.

Results

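The genes described here are 10 interferon-stimulated genes, Ifit1, Ifit2, Ifit3, Isg15, Rsad2, Oasl2, Ifih1, Ddx58, Usp18 and Bst2, in cancer cells growing in the lungs of mice. They were taken by name from a deposited table of 23771 genes, and all 10 are listed there. The question was how their levels in metastases compare between lungs exposed beforehand to tumor-secreted factors (TSF) and lungs exposed to control medium (CM).

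Female BALB/c mice received TSF, which is medium conditioned by resected mammary tumors, or CM, 3 times a week for 3 weeks. In both groups 25000 4T1 cells, a mouse mammary carcinoma line made to express the CD90.1 surface reporter, were then injected intravenously, and lungs were taken 16 days later from mice aged 11 weeks. Cells of the lungs of 3 mice were pooled into 1 5′ single-cell RNA library per group. The CM library holds 29 cancer cells and the TSF library 139, both as annotated by the authors. With 1 library per group no test between the groups is possible, so the values below compare these libraries and carry no p-value. TSF treatment therefore cannot be told apart from any other difference between the pools of mice or the libraries.

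Type I interferons are secreted when cells sense viral or misplaced nucleic acid. They bind the IFNAR receptor, which activates JAK kinases and, through them, ISGF3, a complex that binds interferon-stimulated response elements (ISRE) in promoters. The genes it switches on include sensors of RNA, proteins that block viral RNA and membranes, the ubiquitin-like modifier ISG15 and feedback inhibitors. Many of them also respond to interferon-gamma, which acts through gamma-activated sites (GAS).

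The promoters of the members were read from RefSeq (GRCm38.p6), as the 250 bases before to 50 bases after each transcription start. Of the 10 members, 9 had a promoter in the table, and Usp18 had none. The ISRE core was searched as GAAANNGAAA on both strands and GAS as TTCNNNGAA on both strands. The core was found in 7 of the 9 members (77.8%), against 3.99% of the 27025 genes with a promoter in the table. In 5 of those 7 genes the core lies before the start, and these windows are shown because the same short element recurs in them, written along the gene's own strand with the ISRE core in capitals.
Ifit1, chr19:34640755-34640843, plus strand: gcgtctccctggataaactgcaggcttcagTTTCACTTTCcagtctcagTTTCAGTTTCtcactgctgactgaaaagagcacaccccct
Ifit3, chr19:34583343-34583446, plus strand: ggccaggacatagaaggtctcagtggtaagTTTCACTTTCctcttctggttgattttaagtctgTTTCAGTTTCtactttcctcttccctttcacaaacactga
Isg15, chr4:156200845-156200926, minus strand: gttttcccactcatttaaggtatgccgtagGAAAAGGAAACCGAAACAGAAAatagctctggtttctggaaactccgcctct
Rsad2, chr12:26456533-26456602, minus strand: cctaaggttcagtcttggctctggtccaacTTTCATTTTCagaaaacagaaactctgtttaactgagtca
Bst2, chr8:71537557-71537632, minus strand: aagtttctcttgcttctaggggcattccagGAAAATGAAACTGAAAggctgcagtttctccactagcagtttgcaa

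Ifit1 and Ifit3 each held 2 separate cores, both on the opposite strand. Isg15 held 3 cores that overlap in 1 run, and Bst2 held 2 that overlap. In Ifih1 and Ddx58 the core lies after the start, and those windows are not shown. No core was found in Ifit2 or Oasl2 within these letters and this window. A GAS motif was found in Ifit2 and Bst2, 2 of 9 members (22.2%), against 9.55% of all genes with a promoter. A match of letters is a description and does not show that a factor binds there.

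The mean level of each member over all cancer cells is given in CP10k, counts per 10000 UMIs of a cell, where a UMI marks 1 captured RNA molecule. All 10 members had a lower mean in the TSF library. So did 7309 of the 14735 genes with a UMI in either library, and 5738 of the 9528 genes that passed the filter given below. Summed over the 10 genes, the mean was 22.5 CP10k in the CM library and 6.51 CP10k in the TSF library, 3.46-fold apart. Most of both sums came from Bst2 and Isg15, and the other 8 members summed to 3.65 and 1.36 CP10k, 2.69-fold apart. On log2(mean CP10k + 0.1), 9 of the 10 members were at least 1.5-fold lower in the TSF library and none was 1.5-fold higher. A filter kept the 9528 genes whose share of cells with a UMI, averaged over both libraries, was at least 10%. It kept 9 members, all but Rsad2, and 8 of those 9 were at least 1.5-fold lower. Ifit2 and Ifit3 passed only through the CM library, where they were high, so the count over those that passed is given as a description. Among all genes passing it, 17.7% were lower by that fold and 7.17% were higher. Without the filter, 12.4% of the genes with a UMI in either library were lower. The median log2 ratio was -1.17 for the 9 members and -0.13 for all genes that passed.

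**Figure D1:**
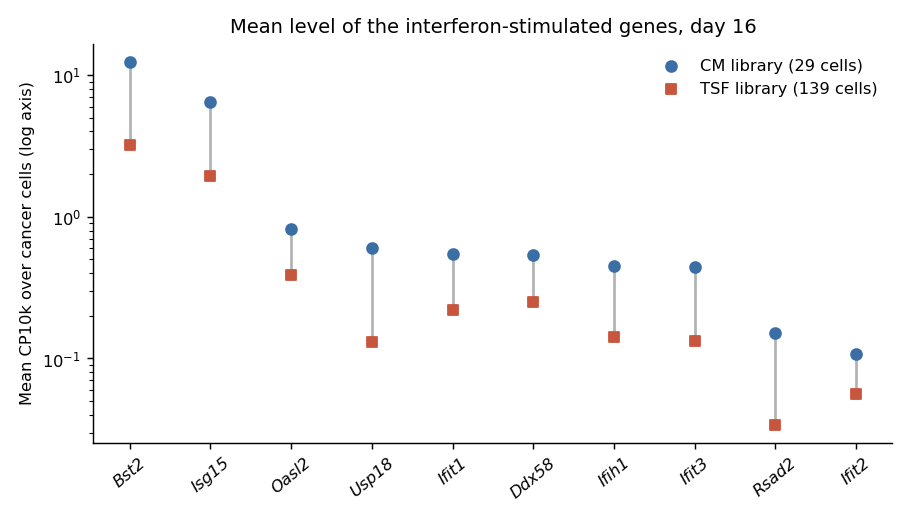
Mean CP10k over the cancer cells (log axis) for each member in the CM library (circles, 29 cells) and the TSF library (squares, 139 cells) at day 16; each point is 1 library, so there is no error bar. The square lies below the circle for all 10 genes, from 12.4 against 3.20 CP10k for Bst2 to 0.107 against 0.0557 CP10k for Ifit2.

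Ddx58 and Ifih1 encode RIG-I and MDA5, cytoplasmic sensors that recognise viral RNA and signal through MAVS. The mean of Ddx58 (chromosome 4, 40203773 to 40239828, minus strand) was 0.534 CP10k in the CM library and 0.251 CP10k in the TSF library, a log2 ratio of -0.85. A UMI of it was found in 16 of 29 CM cells and 49 of 139 TSF cells. These are shares of 55.2% (exact 95% interval 35.7 to 73.6) and 35.3% (27.3 to 43.8), and the intervals overlap. Intervals here are Clopper-Pearson and cover the counting of cells only.

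For Ifih1 (chromosome 2, 62595798 to 62646255, minus strand) the mean was 0.448 CP10k in CM and 0.143 CP10k in TSF cells, a log2 ratio of -1.17. Its share was 34.5% in CM (17.9 to 54.3, 10 cells) and 25.2% in TSF (18.2 to 33.2, 35 cells). Both sensors were thus seen in a smaller share of TSF cells, by 19.9 points for Ddx58 and 9.30 points for Ifih1, within overlapping intervals. The level per cell with a UMI, the mean divided by the share, was 1.36-fold higher in the CM library for Ddx58 and 2.29-fold higher for Ifih1.

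The IFIT proteins bind viral or otherwise foreign RNA ends and limit its translation, and their genes sit side by side on chromosome 19. Ifit2 (34550694 to 34576419), Ifit3 (34583531 to 34588731) and Ifit1 (34640871 to 34650009), all on the plus strand, span 99.3 kb. Ifit3 averaged 0.445 CP10k in the CM library and 0.133 CP10k in the TSF library, a log2 ratio of -1.23. It was seen in 8 of 29 CM cells, 27.6% (12.7 to 47.2), and in 9 of 139 TSF cells, 6.47% (3.00 to 11.9). Ifit3 was the only member whose intervals did not overlap and the only 1 of the 9 whose share was at least 20 points lower, by 21.1 points. Among all genes that passed the filter, 3.57% had a share lower by 20 points. The share of all genes whose intervals did not overlap was not computed, so that count has nothing to be read against.

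Ifit1 averaged 0.549 CP10k in CM and 0.221 CP10k in TSF cells, a log2 ratio of -1.02. Its share was 24.1% (10.3 to 43.5, 7 cells) and 10.1% (5.62 to 16.3, 14 cells). Ifit2 had means of 0.107 and 0.0557 CP10k and shares of 17.2% (5.85 to 35.8, 5 cells) and 7.91% (4.02 to 13.7, 11 cells). Its log2 ratio of -0.41 did not reach 1.5-fold, and it was the only member that did not, although its raw means were 1.92-fold apart. With a pseudocount of 0.01 in place of 0.1 the log2 ratio was -0.83.

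For the 3 IFIT genes the ratio between the libraries was larger in the share of cells with a UMI than in the level per such cell. The TSF shares of these genes are low, and none exceeds the 11.5% at which Dcn, a fibroblast gene, was seen in the same cells. The share was 2.40-fold higher in CM for Ifit1, 2.18-fold for Ifit2 and 4.26-fold for Ifit3. Per cell with a UMI, Ifit1 stood at 2.28 CP10k in CM and 2.19 CP10k in TSF, Ifit2 at 0.619 and 0.704, and Ifit3 at 1.61 and 2.05. For Ifit1 this equals 6.30 and 5.84 UMIs in a cell of median depth, as means over the positive cells. For Ifit2 it equals 1.71 and 1.87 UMIs, and a positive cell must hold at least 1 UMI, which limits how low its level could be. The 5 CM cells with Ifit2, all deeper than the median, held 6, 3, 1, 1 and 1 UMIs, recovered as described below. Ifit3 shares 47.0% of its 60-base exon windows with its neighbor Ifit3b, and Ifit1 shares 6.31% with Ifit1bl2, so how reads were split between these copies is uncertain.

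Rsad2 (chromosome 12, 26442746 to 26456452, minus strand) encodes viperin, an enzyme that makes a chain-terminating nucleotide. It was seen in 2 of 29 CM cells, 6.90% (0.846 to 22.8), and in 2 of 139 TSF cells, 1.44% (0.175 to 5.10). The mean of 0.151 CP10k in CM and 0.0341 CP10k in TSF cells therefore rests on 4 cells in all, and Rsad2 failed the filter.

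The deposited means are sums of whole UMIs divided by each cell's total, so for genes seen in few cells the UMIs can be recovered. Each gene seen in a single cell was compared with 1 to 3 UMIs over a listed cell total, to a relative tolerance of 1e-04, and 98.7% of 1373 genes in CM and 99.1% of 1686 in TSF matched. For Rsad2, 1 solution was found in each library. The CM cells held 13 and 3 UMIs of Rsad2, and the TSF cells 14 and 2. For Ifit2 in the CM library, too, a single solution was found, with 6, 3, 1, 1 and 1 UMIs in 5 cells. Both CM cells with Rsad2 were among those 5, namely the cells of 35268 and 36875 UMIs in total.

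ISG15 is attached to other proteins much as ubiquitin is, and USP18 removes it again and also restrains signaling at IFNAR. Isg15 (chromosome 4, 156199424 to 156200818, minus strand) averaged 6.49 CP10k in CM and 1.94 CP10k in TSF cells, a log2 ratio of -1.69. A UMI of Isg15 was present in 75.9% of CM cells (56.5 to 89.7, 22 cells) and 76.3% of TSF cells (68.3 to 83.1, 106 cells). Isg15 was the only member whose share was not lower in TSF. Its cells with a UMI held 8.55 CP10k in CM and 2.55 CP10k in TSF, on average 23.7 and 6.78 UMIs in a cell of median depth and a 3.36-fold difference. For Isg15 the libraries thus differed in level per positive cell and not in share.

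Usp18 (chromosome 6, 121245906 to 121270917, plus strand) differed in both. The mean was 0.604 CP10k in CM and 0.130 CP10k in TSF cells, a log2 ratio of -1.61 and a raw ratio of 4.64-fold, the highest raw ratio among the 10 members. It was seen in 7 of 29 CM cells, 24.1% (10.3 to 43.5), and in 15 of 139 TSF cells, 10.8% (6.17 to 17.2). Per cell with a UMI the level was 2.50 CP10k in CM and 1.21 CP10k in TSF.

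BST2, or tetherin, holds budding viruses at the cell surface, and OASL2 belongs to the family of oligoadenylate synthetases and their relatives. Bst2 (chromosome 8, 71534255 to 71537456, minus strand) averaged 12.4 CP10k in CM and 3.20 CP10k in TSF cells, with the lowest log2 ratio of the members, -1.91. All 29 CM cells held a UMI of it (88.1 to 100), and 128 of 139 TSF cells did, 92.1% (86.3 to 96.0). As for Isg15, the difference lay in the level per positive cell, at 12.4 CP10k in CM and 3.48 CP10k in TSF, 3.55-fold apart. Unlike Isg15, Bst2 was seen in nearly all cells of both libraries, so its share had little room to differ.

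Oasl2 (chromosome 5, 114896936 to 114912234, plus strand) averaged 0.816 CP10k in CM and 0.390 CP10k in TSF cells, a log2 ratio of -0.90. A UMI was found in 62.1% of CM cells (42.3 to 79.3, 18 cells) and in 46.0% of TSF cells (37.6 to 54.7, 64 cells). Per positive cell the level was 1.32 and 0.847 CP10k, 1.55-fold apart.

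**Figure D2:**
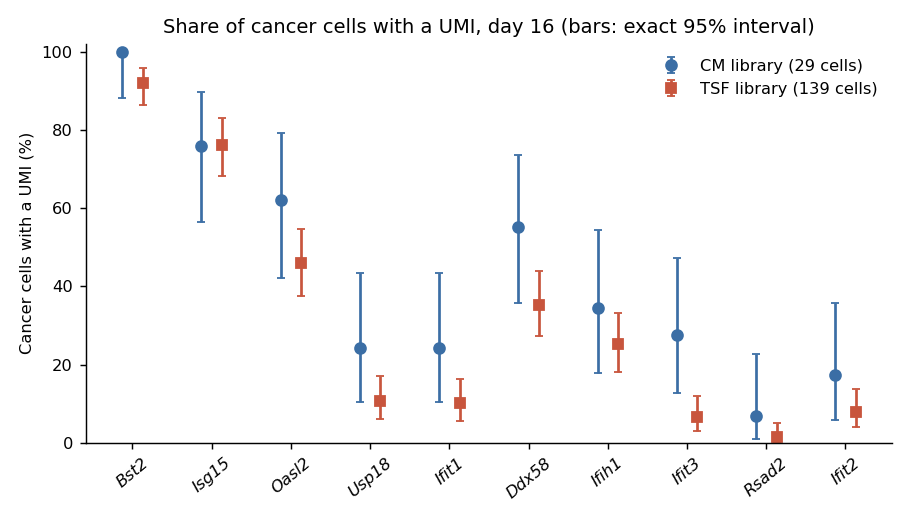
Percent of cancer cells with a UMI of each member in the CM library (circles, 29 cells) and the TSF library (squares, 139 cells); bars are exact 95% intervals for the counting of cells. The intervals overlap for 9 of 10 genes, all but Ifit3, and the CM intervals are the wider ones. The share of all genes with overlapping intervals was not computed.

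**Figure D3:**
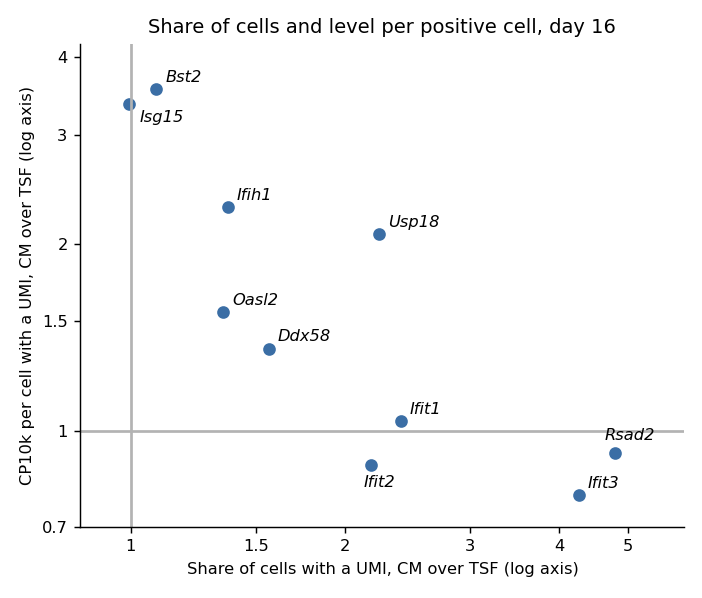
For each member, the ratio of the share of cells with a UMI (x axis) and of the level per cell with a UMI (y axis), CM over TSF, both on log axes, with lines at 1. Isg15 and Bst2 lie high on the left, at 3.36 and 3.55 in level per positive cell, while Ifit1, Ifit2, Ifit3 and Rsad2 lie to the right, near 1 in level. The share of Bst2, near 100% in both libraries, had little room to differ. A cell positive for Ifit2 holds at least 1 UMI, which limits how low its level could be.

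The share of cells with a UMI depends on how deeply each cell was read. Median depth of the cancer cells was close, 27679 UMIs in CM and 26615 in TSF, but 8 of 29 CM cells (27.6%) and 14 of 139 TSF cells (10.1%) had under 10000 UMIs. For each gene the level was computed which, if the same in every cell, would give the observed share at these depths. By this measure, which ignores the mean, Ifit1 stood at 0.115 CP10k in CM and 0.0380 in TSF, Ifit3 at 0.136 and 0.0238, Usp18 at 0.115 and 0.0409, Ddx58 at 0.372 and 0.162, and Oasl2 at 0.468 and 0.237. Those 5 were at least 1.5-fold lower in TSF after adding 0.1, out of 8 members with a value and past the filter, against 16.6% of all such genes. Isg15, at 0.782 and 0.636 CP10k, Ifih1, at 0.181 and 0.106, and Ifit2, at 0.0778 and 0.0294, did not reach that fold. Without the added 0.1 these were 1.23-fold, 1.70-fold and 2.65-fold apart, so only Isg15 was then under 1.5-fold among these 8.

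One very shallow cell could weigh on the CM mean. The shallowest CM cell had 973 UMIs, and 1 UMI there would add 0.354 CP10k to the mean of the library, more than the difference between the libraries for 6 members, Ifit1, Ifit2, Ifit3, Rsad2, Ifih1 and Ddx58. Its part was checked through the recovered UMIs. Ifit2 and Rsad2 summed to less than 1 UMI in that cell, and no combination of whole UMIs that includes it gave the deposited mean of Ifit1, Ifit3, Usp18 or Ifih1. The same search found 1 solution without that cell for each of 40 other genes of small sum seen in 7 or 8 CM cells, and 1 solution with it for 7 of 30 genes of larger sum. As far as the means are sums of whole UMIs, that cell held no UMI of Ifit1, Ifit2, Ifit3, Rsad2, Usp18 or Ifih1. For Ifit1, Ifit3, Usp18 and Ifih1 no solution without that cell was sought, so this condition was not checked for them. Ddx58 and Oasl2 were seen in too many cells for this search, and for Isg15 and Bst2 the difference of the means is many times larger.

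The members were unevenly spread over the cancer cells. If every CM cell had held the mean level of Ifit1, a UMI would be expected in 66.7% of cells at these depths, against the 24.1% observed. For Ifit3 the expected share was 60.6% and for Usp18 69.3%, against 27.6% and 24.1%. In TSF cells the expected shares were 44.0% for Ifit1, 30.1% for Ifit3 and 29.7% for Usp18, against 10.1%, 6.47% and 10.8%. The observed share as a percentage of the even one had a median of 66.5% in CM and 64.4% in TSF over the 10 members. Over the 9 members that passed the filter it was 76.2% and 73.6%, and over all genes that passed 95.4% and 94.6%. The 22 interferon-gamma targets described below stood at 78.5% and 71.2%. The 40 other interferon-stimulated genes described below stood at 82.5% and 83.2%, and the 91 genes of the Hallmark interferon-alpha set at 89.1% and 88.5%. Bst2 was close to even in both libraries, at 101% and 95.5%.

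**Figure D4:**
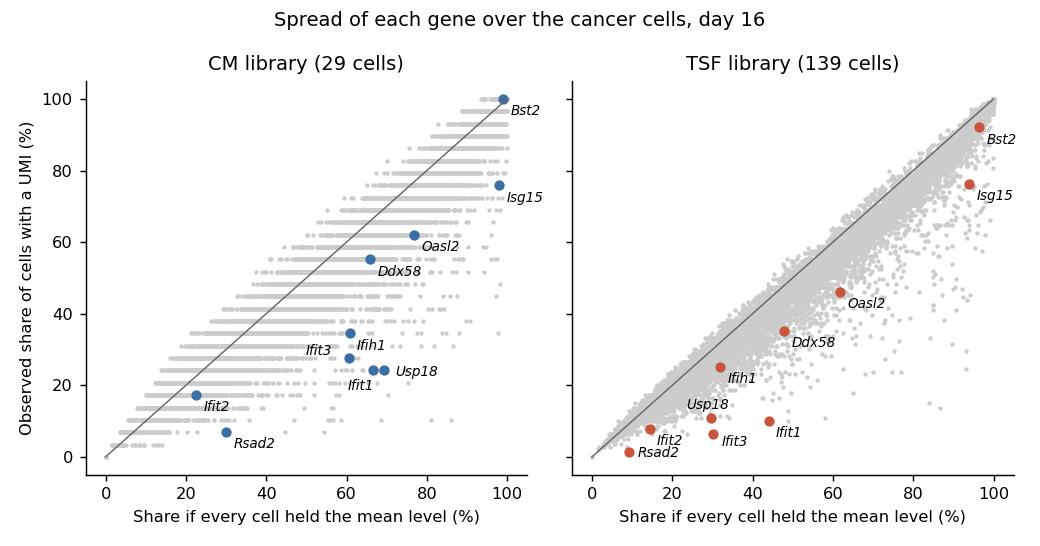
Observed percent of cells with a UMI against the percent expected if every cell held the mean level at its own depth, for the CM library (left) and the TSF library (right); gray points are the 9528 genes that passed the filter, colored points the members, and the line marks equality. Ifit1, Ifit3 and Usp18 lie far under the line in both libraries, and Bst2 lies near it.

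Upstream of the members, the interferon ligands were barely seen. Of 10 ligand genes looked for, 5 are listed, and Ifnb1, Ifnl2 and Ifng had no UMI in any cancer cell. For each of them, taking a limit of 3 counts, 0 of 29 CM cells allows a share of cells with a UMI of up to 10.3%, and 0 of 139 TSF cells one of up to 2.16%, which does not limit the share of cells expressing the gene. Ifnk was seen in 1 CM cell and Ifne in 1 TSF cell.

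For this list and those below, 17.7% of all genes that passed the filter were at least 1.5-fold lower and 7.17% higher. Among 11 receptor and signaling genes that passed the filter, 4 were at least 1.5-fold lower in TSF and none higher. They included Stat2 and Irf9, which encode parts of ISGF3, and Socs1, a feedback inhibitor of JAK kinases. The log2 ratio was -2.51 for Socs1, -1.58 for Irf9 and -1.36 for Stat2. The receptor gene Ifnar1 had the highest log2 ratio of the list, 0.55, with means of 0.157 and 0.277 CP10k, followed by Socs3 at 0.19.

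Among 15 genes of nucleic acid sensing and interferon induction, 5 were at least 1.5-fold lower and none higher, with a median log2 ratio of -0.40. They were Zbp1, a sensor of left-handed nucleic acid, at -2.67, the transcription factor Irf7 at -1.35, the DNA sensor Cgas at -0.82, the RNA sensor Tlr3 at -0.77 and Irf3 at -0.64. The highest values in this list were 0.22 for Traf3 and 0.09 for Traf6. Mavs, the adapter of Ddx58 and Ifih1, averaged 0.175 CP10k in CM and 0.137 CP10k in TSF cells.

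Of 50 other interferon-stimulated genes, 47 are listed and 40 passed the filter. In the TSF library 31 of those 40 were at least 1.5-fold lower and none was higher. Some of the 40, such as Oasl1, Ifit3b and Cmpk2, passed only through the CM library, where they were high, so this count is a description. Of all 47, 31 were lower and 2 higher. The median log2 ratio of all 47 was -0.94, beside -1.09 for the 10 members. The lowest were Zbp1, also in the previous list, Herc6 at -2.02, which ligates ISG15 in mice, and Xaf1 at -1.95. Slfn2 at 0.37 and Ifitm2 at 0.20 were the highest. Ifitm3, from the same family as Ifitm2, was also near level, at 20.8 CP10k in CM and 19.5 CP10k in TSF cells.

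In the Hallmark interferon-alpha set, which holds 7 of the members, 60 of the 91 genes that passed the filter were at least 1.5-fold lower and 2 were higher. Without the members these were 55 and 2 of 85. The set also shares 31 genes with the list of other interferon-stimulated genes and 10 with the interferon-gamma list below, so these counts are not separate observations. Some of its genes, such as Batf2 and Cmpk2, passed only through the CM library, where they were high. The 2 higher genes were Ifi30, a lysosomal thiol reductase, from 0.240 to 0.517 CP10k, and Il4ra, the interleukin-4 receptor, from 0.0499 to 0.130 CP10k.

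Genes known best as interferon-gamma targets stood further apart than the members. Of 22 such genes that passed the filter, 21 were at least 1.5-fold lower in TSF, with a median log2 ratio of -2.44. A share lower by at least 20 points was found for 19 of them, beside 3.57% of all genes that passed. Ciita and Tgtp1 passed only through the CM library, where they were high, so these counts are given as a description. Without the filter 22 of 23 were lower. The GTPase gene Gbp4 averaged 3.68 CP10k in CM and 0.0836 CP10k in TSF cells, a log2 ratio of -4.36. Gbp6 was at -3.63 and Igtp at -3.29, and the highest were Gbp5 at -0.51 and B2m at -0.91. The core of the ISRE was found in 11 of 17 promoters of this list and GAS in 9, against 7 and 2 of 9 for the members. The difference between the lists has no test, as each rests on the same pair of libraries.

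**Figure D5:**
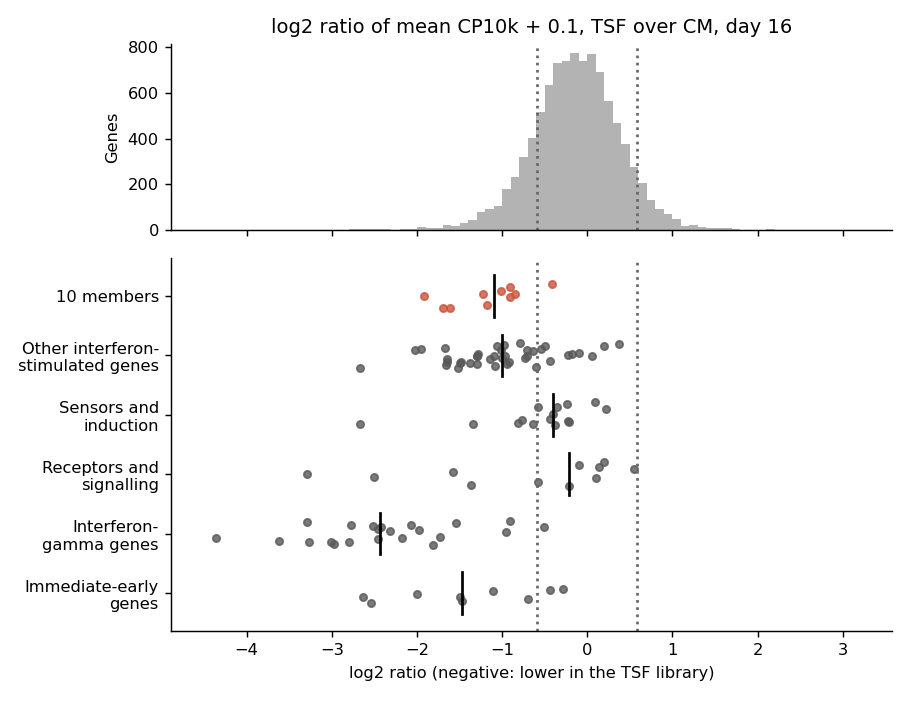
Top, number of genes by log2 ratio of mean CP10k + 0.1, TSF over CM, for the 9528 genes that passed the filter; bottom, the same ratio for each member and for each gene of 5 lists that passed the filter, with black bars at the median and dotted lines at 1.5-fold. The members lie left of 0, with a median of -1.09, as do most other interferon-stimulated genes, and the interferon-gamma genes lie further left, with a median of -2.44.

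The annotation as cancer cells was set against marker genes. Krt8 and Krt18, keratins of the epithelial 4T1 line, were seen in at least 96.6% of cells of each library. Epcam was seen in 27.6% of CM and 68.3% of TSF cells, Cdh1 in 6.90% and 25.2%, and the CD90.1 reporter in 6.90% and 34.5%. All 3 were thus sparse in the CM library. Krt7 was seen in 62.1% of CM and 61.2% of TSF cells, and Krt19 in 31.0% and 38.1%. Of 12 leukocyte markers 11 were at 0 in the CM library, and their summed mean was 0.00958 CP10k there and 1.17 CP10k in TSF. Lyz2 and Nkg7 were at 0 in both, and the largest leukocyte share was 3.45% in CM and 6.47% in TSF. Summed endothelial markers were 0.0588 and 0.163 CP10k, and fibroblast markers 0.0907 and 0.613 CP10k. The largest share of any marker of these other cell types was 10.3% in CM, for the endothelial Cdh5, and 11.5% in TSF, for the fibroblast gene Dcn. The shares of Ifit1, Ifit2, Ifit3, Usp18 and Rsad2 in TSF cells, and of Rsad2 in CM cells, do not exceed these levels and are not read as expression. For these 5 genes the TSF level per positive cell and the ratios to it carry the same limit. The counts and sums over the members include these genes. Single cells held 13 UMIs of Rsad2 in CM and 14 in TSF, and whether these are expression by cancer cells was not tested.

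Other differences moved with the members, and their part in the result was not tested. A list of immediate-early genes and the heat shock genes Hspa1a and Hspa1b had 9 genes that passed the filter. Of these 9, 7 were also at least 1.5-fold lower in TSF, beside 17.7% of all genes that passed. Among the 7 were Atf3 at a log2 ratio of -2.63 and Hspa1b at -2.00. The sum over the list of 10 genes was 111 CP10k in CM and 41.3 CP10k in TSF. The authors' fine cluster 131 held 23 of the 29 CM cells, 79.3% (60.3 to 92.0), and 54 of the 139 TSF cells, 38.8% (30.7 to 47.5), and cluster 120 held the others. Of the members, 5 were among the variable genes the authors chose for clustering. The 5 CM cells with Ifit2, which include both CM cells with Rsad2, were all in cluster 131. The TSF cell with 14 UMIs of Rsad2 was in cluster 131 and the TSF cell with 2 in cluster 120. The levels of the members within each cluster were not analysed here beyond these cells. The 5 genes chosen as broadly expressed, such as Actb and Gapdh, were each seen in at least 96.6% of cells of each library. All of them stayed within 1.5-fold, at 217 and 234 CP10k in sum. No barcode was shared between the cancer cells of the libraries, and 31 were shared between all cells of the libraries.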

How the data were processed

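Lungs were profiled with the 10x Genomics 5′ v1.1 kit. Per the labels and the study's methods, the authors mapped reads with Cell Ranger to mouse mm10 (GRCm38.p6), to which the CD90.1 sequence had been added, subtracted ambient RNA with a customized SoupX that doubled its estimate, so low levels are uncertain, and processed cells in R with Seurat 4.1.0, among other packages. The deposited cells had no fewer than 202 genes and 800 UMIs, with up to 9.99% from mitochondria. The class of cancer cells was assigned by the authors, and no doublet caller was run here. Of 5 samples in the series, the day 16 CM and TSF libraries were compared.

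The deposited table of cancer cells gives, for each library, the authors' mean CP10k score over all cells, the number of cells with a count above 0 and the percent of cells. CP10k is scaled to 10000 UMIs per cell and not to gene length. The deposited cell table gives UMI counts per cell. The authors' fold changes, p-values, q-values and ranking values for this contrast, and their gene set results, were not used. The cell table also holds 2 libraries that were not used here.

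Ratios were computed in scipy 1.17.1, pandas 2.3.3 and numpy 2.4.6 under Python 3.11.15, with figures from matplotlib 3.10.9, as log2(mean CP10k + 0.1), which understates changes of low genes. A fold of 1.5 or 20 percentage points was called descriptively, with no test. Of each gene list beyond the members, the 3 lowest and 2 highest genes were named, except 1 gene that is not reported here, and other names were chosen after their values were seen. The members and lists were chosen with earlier results of these data known. A gene's older symbol was used for 1 list entry. The recovery of UMIs was added after seeing the data, and the search for whole UMIs and the other computations were tested on simulated data. Gene positions are those of GENCODE M21.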

Additional observations from a re-analysis of the deposited data

How the results depend on the processing

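No paired analysis was possible because each group has 1 library. For the same reason no library could be left out. With a pseudocount of 0.01, 9 of 9 members were at least 1.5-fold lower, beside 27.4% of all genes. Of 208 values computed over all settings, none reversed. Counts and levels cannot change sign, and a pseudocount cannot change the sign of a gene's ratio, so no conclusion is drawn from this. With a pseudocount of 1 CP10k, which hides low genes, the number at least 1.5-fold lower was 2 for the members, 7 for the other interferon-stimulated genes, 2 for receptors and signaling, 1 for sensors and 17 for the Hallmark set, with 0 higher in the latter, while 2.09% of all genes were lower. The median of the interferon-gamma genes was then -1.19 and the log2 ratio of Bst2 -1.67. With a fold of 2, 20 other interferon-stimulated genes, 2 sensors and 39 Hallmark genes were lower, and 0 Hallmark genes were higher. Of all genes, 5.01% were lower by that fold and 1.57% higher. A mean share of at least 25% left 5 members, all 5 of them lower, and 1 Hallmark gene, Ifi30, was higher. Of all genes left by it, 18.4% were lower and 6.83% higher. Without the filter 2 other interferon-stimulated genes, Ifi27l2a and Ifitm1, were higher. Of the receptor and signaling genes 1, Ifnar1, was higher with a pseudocount of 0.01, with CP10k rescaled without ribosomal and mitochondrial genes, which shifts log2 ratios by 0.10, and after centring on the median of all genes. Centring also moved the share of all genes lower and higher from 17.7% and 7.17% to 12.2% and 11.5%. By the level implied by the share of cells, chosen after seeing the data, 5 members of 8 were lower, 1 Hallmark gene, again Ifi30, was higher, and Isg15 stood at a log2 ratio of -0.26. A share lower by 10 points was found for 5 members and by 30 points for 0. The shares of all genes past 10 and 30 points were not computed, so these counts have nothing to be read against. The 29 CM cells limit every share of that library, and counting intervals do not cover differences between mice.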

Other observations

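Genes that handle ISG15 next to Isg15 and Usp18 were looked at after their values were seen. Uba7, which activates ISG15, averaged 0.109 CP10k in CM and 0.117 CP10k in TSF cells, a log2 ratio of 0.05. Ube2l6, which passes ISG15 on, averaged 0.709 and 0.158 CP10k, a log2 ratio of -1.65, and was seen in 65.5% (45.7 to 82.1) of CM cells and 28.8% (21.4 to 37.1) of TSF cells. Of these conjugation genes, Uba7 was thus near level between the libraries, while Ube2l6 and Herc6 had log2 ratios of -1.65 and -2.02.

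Ifit3b, the near copy of Ifit3, averaged 0.323 CP10k in CM and 0.0331 CP10k in TSF cells. It was seen in 8 of 29 CM cells, 27.6% (12.7 to 47.2), and in 4 of 139 TSF cells, 2.88% (0.790 to 7.20). Dhx58, a relative of Ddx58 and Ifih1 that tunes their signaling, averaged 0.101 and 0.0716 CP10k and did not reach 1.5-fold.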
